A study of Sus scrofa with 8 samples.

Results

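Cytochrome P450s and the enzymes that conjugate their products were followed across 4 pig tissues. The genes were chosen by symbol alone: CYP followed by a digit (without CYP1A1 and CYP1B1), or a glutathione S-transferase (GST), UDP-glucuronosyltransferase (UGT) or sulfotransferase (SULT) family name, with 10 or more counts over the 8 libraries. The rule gave 39 of the 31907 genes in the count files: 23 CYP, 7 GST, 1 UGT and 8 SULT genes. Of the 31907 genes, 15029 carried a symbol, so a gene of these families without one could not be found. The study concerned lining an ileal neobladder, a urinary reservoir built from small intestine, with the animal's own peritoneum. All tissue came from Guizhou minipigs aged 8 months, and each of the 4 groups held 2 libraries: mucosa of the normal bladder (MNB, native bladder), mucosa of the neobladder of the experimental group (MN-Exp), mucosa of the neobladder of the control group (MN-Ctrl) and normal peritoneum (NP). Nothing in the labels tells what lined the control neobladder, the time since surgery, or whether a group's libraries came from separate animals, so p-values measure only the spread between these samples, which may be technical.

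Cytochrome P450s are haem enzymes that insert oxygen into drugs, pollutants, fatty acids, sterols and vitamins, mostly in the endoplasmic reticulum, with electrons handed on by the reductase POR. The conjugating enzymes then attach a soluble group. Glutathione S-transferases add glutathione, sulfotransferases add sulfate from the donor PAPS, and UDP-glucuronosyltransferases add a sugar. Liver and small intestine are the tissues best known for both steps, and the lining of the bladder meets many of the products in urine. In bulk tissue, fewer cells of a type and less RNA per cell cannot be told apart.

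Library totals ran from 7.94 to 11.88 M counts. Levels are in CPM, a gene's counts over 1e6 counts of its library's total after scaling by edgeR's TMM factor, which allows for a few very abundant genes taking a large share of a library. The TMM factors were 0.839 and 0.449 in the control neobladder libraries and 1.088 to 1.239 in the other 6, and 3 counts equalled 0.224 to 0.562 CPM. Marker genes set the tissues apart. Summed levels of 9 enterocyte markers ran from 44462 to 162195 CPM in the control neobladder and from 53.8 to 135 CPM elsewhere. FABP6 held most of the control sums, at 31351 and 157528 CPM. ANPEP, KRT20, VIL1, SLC10A2, SI and APOA4 were lower in control replicate 2 than in replicate 1, and CDX2 and FABP2 higher. Summed levels of 9 urothelial markers, the genes of the bladder lining, ran from 9188 to 10000 CPM in native bladder and 4655 to 8763 CPM in experimental neobladder. They ran from 557 to 1000 CPM in peritoneum and 121 to 183 CPM in control neobladder. UPK1B (309 and 573 CPM) and KRT7 (159 and 360 CPM) held most of the peritoneum sum. UPK3A stood there at 6.83 and 4.81 CPM and FOXA1 at 0.509 and 0.178 CPM, both below control neobladder (40.5 and 103 CPM, and 41.9 and 5.62 CPM). Of 3 mesothelial markers in the files, WT1 and BNC1 together reached 30.2 to 30.5 CPM in peritoneum and CALB2 was at 0 counts there, while the sum was at most 0.187 CPM in the other groups. Of 7 hepatocyte markers the sum was 20.4 to 20.6 CPM in peritoneum and at most 2.998 CPM elsewhere. TF held most of the peritoneum sum, at 16.7 and 15.0 CPM. ALB stood at 1.43 and 1.87 CPM in peritoneum and at 2.62 CPM in control neobladder replicate 2. AHSG, SERPINA1 and APOH were at 0 in native bladder, peritoneum and control neobladder.

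**Figure D1:**
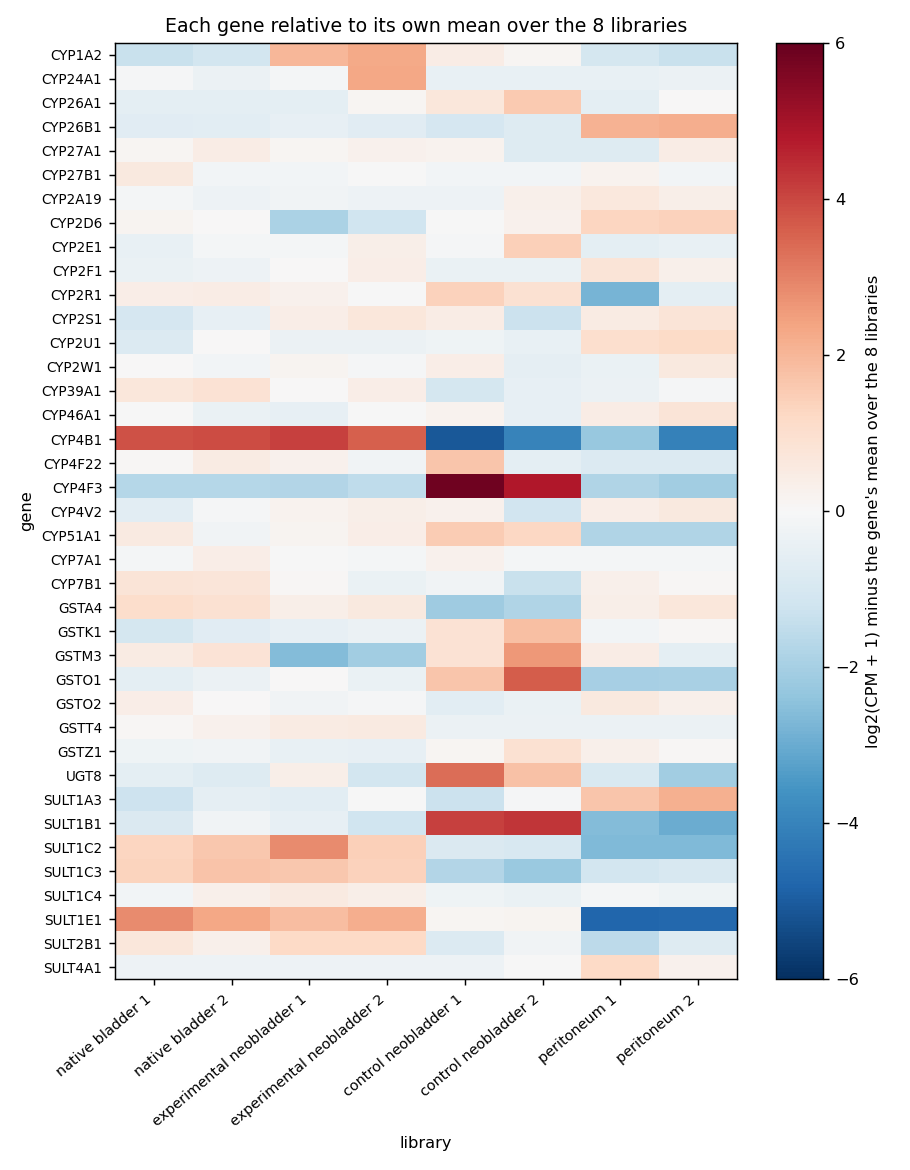
Heat map of log2(CPM + 1) of each of the 39 genes minus that gene's own mean over the 8 libraries, with genes in rows and libraries in columns. CYP4B1 is red in the native bladder and experimental neobladder columns and blue in the other 4, while CYP4F3 and SULT1B1 are red only in the control neobladder columns.

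The low-count filter kept 30 of the 39 genes, 17 CYP, 6 GST, 1 UGT and 6 SULT. A gene that passed through 1 high group had to differ, so counts among the 30 are not counts over all 39. CYP4F3, CYP26A1 and CYP26B1 were among such genes. The 9 others were CYP24A1, CYP27B1, CYP2A19, CYP2F1, CYP2W1, CYP7A1, GSTT4, SULT1C4 and SULT4A1, with 10 to 72 counts each over the 8 libraries. Among these, CYP24A1, which breaks down active vitamin D, stood at 0.254 and 5.84 CPM in the experimental neobladder, so that 1 library held 63 of its 72 counts. SULT4A1, best known from brain, stood at 1.83 and 0.446 CPM in peritoneum and had at most 1 count in each other library. GSTT4 was seen in native bladder (0.323 and 0.523 CPM) and experimental neobladder (0.763 and 0.835 CPM) and was at 0 counts in the other 4 libraries. CYP7A1, the rate-limiting enzyme of bile acid synthesis, and CYP27B1, which activates vitamin D, held 10 and 12 counts in all. CYP2A19 reached at most 0.917 CPM, CYP2F1 1.22 CPM, CYP2W1 1.16 CPM and SULT1C4 0.932 CPM. Another 6 symbols of the rule were in the files below the minimum: CYP11A1, CYP17A1 and CYP21A2 of steroid hormone synthesis, CYP26C1, SULT2A1 and SULT6B1, with 0 to 9 counts each.

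Each comparison was tested with edgeR's quasi-likelihood test over 16549 genes, and a gene is called at a Benjamini-Hochberg adjusted p under 0.05 over all of them. Fold changes are on the log2 scale and stand beside their standard error (SE). Between experimental and control neobladder, 6 of the 30 tested members rose in the experimental neobladder, against 10.4% of all tested genes, and 7 fell, against 11.3%. The median log2 fold change was 0.12 over the members and 0.11 over all tested genes. By family, 1 of 17 CYP genes rose and 2 fell, 1 of 6 GST genes rose and 3 fell, 4 of 6 SULT genes rose and 1 fell, and the single UGT gene fell. An unadjusted p under 0.05 was reached by 17 of the 30 members and by 36% of all tested genes.

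Against native bladder, no member of the experimental neobladder was called in either direction, where 0.0423% of all tested genes were called higher and 0.0544% lower. Of the 30, 4 had an unadjusted p under 0.05, against 8.01% of all tested genes, and the median log2 fold change was -0.01 beside 0.02 over all tested genes. DESeq2 called 3 members in this comparison, CYP1A2 higher, against 0.52% of the 15383 genes it tested, and GSTM3 and CYP2D6 lower, against 0.78%. In the control neobladder against native bladder, 8 members were called higher, against 11.2% of all tested genes, and 7 lower, against 11.1%. These comparisons share libraries, so their counts are not independent of each other.

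**Figure D2:**
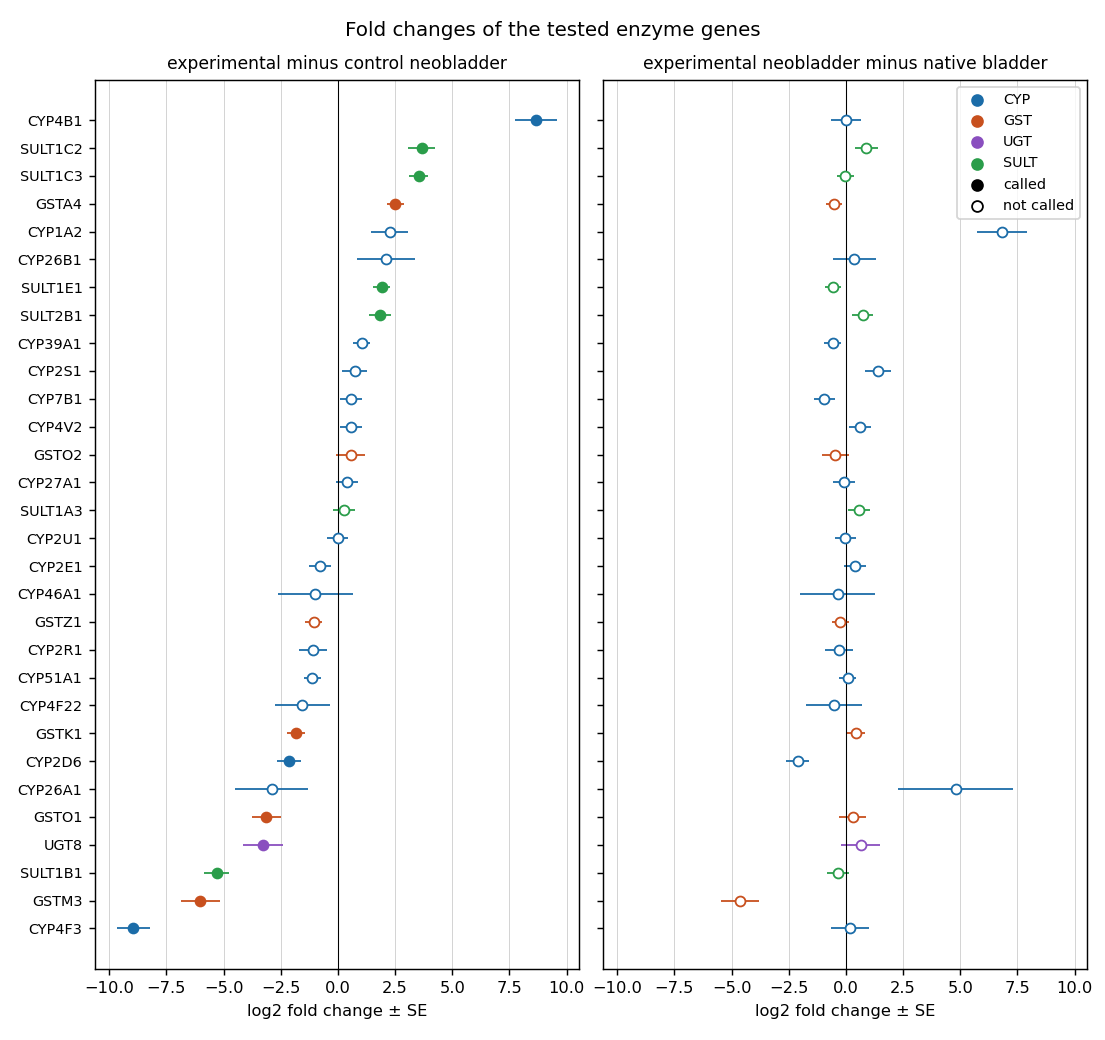
Log2 fold change ± SE of the 30 tested genes in the experimental neobladder, relative to control neobladder (left panel) and native bladder (right panel), coloured by family, with filled points for an adjusted p under 0.05. The left panel spans -8.94 for CYP4F3 to 8.68 for CYP4B1, and no point is filled in the right panel.

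Among the CYP4 and CYP2 enzymes of fatty acids and eicosanoids, CYP4B1 and CYP4F3 showed opposite patterns. CYP4B1, which oxidises medium-chain fatty acids and activates some foreign compounds, stood at 1527 and 1592 CPM in native bladder, 1839 and 1285 CPM in experimental neobladder, 2.18 and 5.62 CPM in control neobladder, and 20.8 and 5.52 CPM in peritoneum. The native bladder and experimental neobladder libraries were high and overlapped, and the other 4 libraries were low and also overlapped. The mean of 1562 ± 391 CPM (SD, n = 2) in experimental neobladder was 8.68 ± 0.911 above the 3.90 ± 2.43 CPM of control neobladder on the log2 scale (adjusted p = 0.000167). Its difference from native bladder was 0.00 ± 0.642. Left out alone, control neobladder replicate 2 moved the difference between the neobladders to 9.49 with the call unchanged.

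CYP4F3, which ends leukotriene B4 signalling by omega-hydroxylation, stood at 243 and 118 CPM in control neobladder. It was between 0.204 and 0.464 CPM in 5 of the other 6 libraries, which is 2 to 5 counts each, and at 0 in peritoneum replicate 2. It was lower in experimental than in control neobladder by a log2 fold change of -8.94 ± 0.711 (adjusted p = 4.53e-05) and higher in control neobladder than in native bladder by 9.13 ± 0.714 (adjusted p = 4.32e-05). Without MN-Ctrl replicate 1 the first of these was -8.30. Against the 2 counts of peritoneum, the control neobladder ratio has a 95% counting interval that starts at 573. How reads shared with other CYP4F copies were counted is not given in the sources used here.

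The other 4 tested genes of this role were not called among the 3 mucosal groups. CYP4F22, a hydroxylase of the skin barrier's long fatty acids, stood at 4.57 CPM in control neobladder replicate 1 and 0.187 CPM in replicate 2, and at 0 counts in both peritoneum libraries. CYP2S1, at 14.6 and 18.1 CPM in experimental neobladder and 4.93 and 7.47 CPM in native bladder, had a difference of 1.39 ± 0.566 (adjusted p = 0.544). CYP4V2 ranged over all libraries from 7.87 to 28.8 CPM. CYP2U1, which hydroxylates arachidonic acid, stood at 15.7 and 17.4 CPM in peritoneum and between 3.72 and 7.47 CPM in the other 6 libraries.

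**Figure D3:**
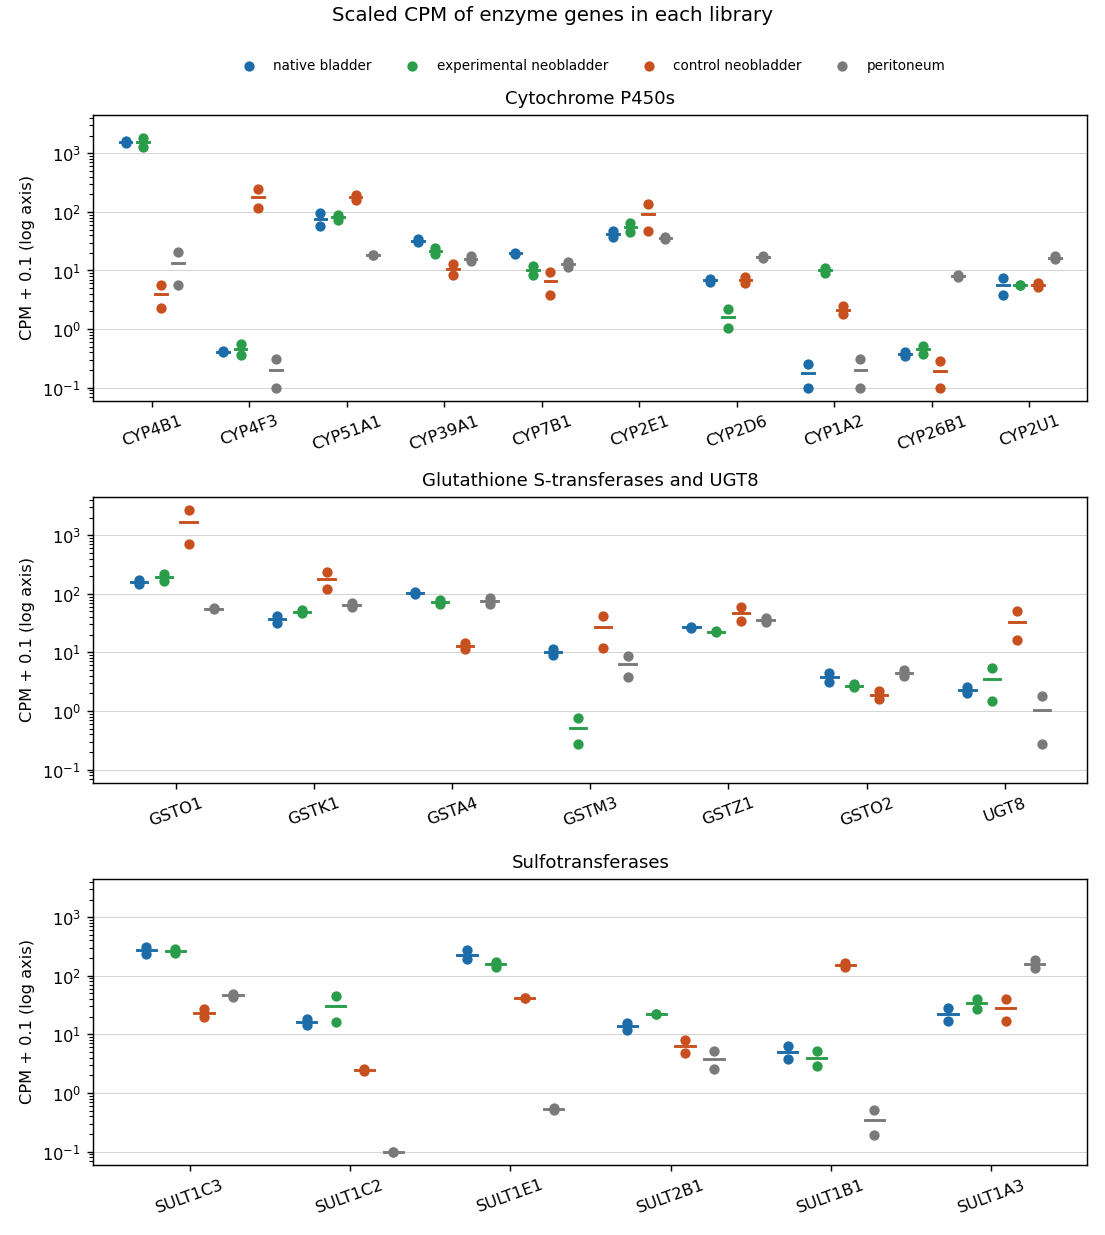
CPM + 0.1 on a log axis of 23 member genes in each library, with 1 point per library, a bar at the group mean, and colours for the 4 groups. The control neobladder points stand apart from the experimental ones for CYP4B1, CYP4F3, SULT1B1, SULT1C3 and GSTA4, and the peritoneum points are lowest for SULT1E1 and SULT1C2.

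None of the 5 tested P450s of cholesterol and bile acids was called between the neobladders. CYP51A1 (chr9:72057506-72079587 of Sscrofa11.1), which removes a methyl group from lanosterol in cholesterol synthesis, stood at 95.2 and 57.0 CPM in native bladder, 73.4 and 88.2 CPM in experimental neobladder, 195 and 157 CPM in control neobladder and 18.0 CPM in both peritoneum libraries. The 2 neobladders did not overlap, though they did on unscaled library totals, and the difference of -1.13 ± 0.376 missed the threshold (adjusted p = 0.0558). Control neobladder was called above native bladder by 1.21 ± 0.376 (adjusted p = 0.042), a call that was lost in 10 of 14 alternative settings, with a fold change of 0.38 on unscaled library totals.

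CYP39A1 and CYP7B1, which hydroxylate oxysterols, had their highest levels in native bladder. CYP39A1 (chr7:41345011-41425854), which acts on 24-hydroxycholesterol, stood at 30.05 and 33.7 CPM in native bladder, 18.8 and 24.1 CPM in experimental neobladder, 8.17 and 12.9 CPM in control neobladder and 14.3 and 17.3 CPM in peritoneum. The 3 mucosal groups did not overlap. It was lower in control neobladder than in native bladder by -1.61 ± 0.387 (adjusted p = 0.0149, lost in 3 of 14 settings), and the difference between the neobladders was 1.03 ± 0.384 (adjusted p = 0.0798). CYP7B1, a 7-alpha-hydroxylase of oxysterols, stood at 19.8 and 19.1 CPM in native bladder, 11.95 and 8.35 CPM in experimental and 9.47 and 3.75 CPM in control neobladder. Its call in control neobladder against native bladder (-1.53 ± 0.48, adjusted p = 0.0444) was lost in 9 of 14 settings. CYP27A1, the sterol 27-hydroxylase, ranged from 16.1 to 38.7 CPM with overlap between all 4 groups, and CYP46A1, the brain's cholesterol 24-hydroxylase, did not exceed 1.43 CPM.

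Of the P450s that act mainly on foreign compounds, 3 were tested. CYP2B6B, CYP2C42, CYP2C49 and CYP3A29 have IDs that are in no count file, so their levels are unknown. CYP2D6, which oxidises many amine drugs, stood at 0.932 and 2.13 CPM in experimental neobladder, 6.95 and 6.35 CPM in native bladder, 5.99 and 7.68 CPM in control neobladder and 16.5 and 17.7 CPM in peritoneum. Both experimental libraries were below all 6 others. It fell against control neobladder by 2.15 on the log2 scale, with an SE of 0.52 (adjusted p = 0.0152). That call was lost on unscaled library totals (adjusted p = 0.112), with only these 2 groups in the fit (0.0626) and without MN-Exp replicate 1 (0.139), and without MN-Exp replicate 2 the log2 fold change was -2.83. Against native bladder the difference was -2.12 ± 0.512 (adjusted p = 0.233 in edgeR and 0.044 in DESeq2).

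CYP1A2 (chr7:58779529-58786155), which oxidises caffeine and aromatic amines, stood at 8.98 and 11.13 CPM in experimental neobladder and 2.40 and 1.69 CPM in control neobladder, and had 0 and 2 counts in the native bladder libraries. The 3 mucosal groups did not overlap, and peritoneum had 2 and 0 counts. The ratio of experimental neobladder to native bladder was 129, with a 95% counting interval of 35.3 to 1071, and the test gave an adjusted p of 0.0622 (2.84e-05 in DESeq2). Its log2 fold change between the neobladders was 2.28 ± 0.807 (adjusted p = 0.0691). Its near copy CYP1A1 had 30951 and 43837 counts in experimental neobladder and 7745 and 2489 in control neobladder, and CYP1A2 counts were 0.342, 0.274, 0.284 and 0.362% of those. Whether the CYP1A2 counts are reads of CYP1A1 was not tested, so its level is uncertain. CYP2E1 (chr14:141690737-141703078), which oxidises ethanol, overlapped between the neobladders, at 45.9 and 63.6 CPM in experimental and 47.5 and 139 CPM in control mucosa.

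Of the genes of vitamins A and D, CYP2R1 (chr2:44375432-44394122), a vitamin D 25-hydroxylase, stood at 53.1 and 38.0 CPM in control neobladder, 23.6 and 19.4 CPM in experimental neobladder and 26.3 and 27.0 CPM in native bladder, and the neobladders differed by -1.09 ± 0.624 (adjusted p = 0.236). CYP26A1 and CYP26B1 both break down retinoic acid, the active form of vitamin A. CYP26A1 (chr14:104561394-104567099) had 0 counts in both native bladder libraries and 1.42 and 3.56 CPM in control neobladder. That is at least 21.4-fold higher against a floor of 3 counts over the group (adjusted p = 0.0436), and the call was lost in 5 of 14 settings. Control neobladder held 32 of the 45 counts of CYP26A1 and carried it past the low-count filter, so some difference was set in advance. CYP26B1 stood at 7.54 and 8.29 CPM in peritoneum and at most 0.424 CPM in every other library.

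The glutathione S-transferases split by member rather than moving together. GSTO1 (chr14:115206434-115216624), an omega-class enzyme that reduces dehydroascorbate, stood at 697 and 2708 CPM in control neobladder, 222 and 167 CPM in experimental neobladder, 144 and 170 CPM in native bladder and 55.0 and 56.2 CPM in peritoneum. Both control libraries were above all others, with a wide gap between them. The log2 fold change of experimental against control neobladder was -3.13 ± 0.635 (adjusted p = 0.00654). It was -1.84 without MN-Ctrl replicate 2, -3.78 without MN-Ctrl replicate 1 and -2.05 on unscaled totals, and was not called without MN-Exp replicate 2 (adjusted p = 0.0868) or with only these 2 groups in the fit (0.0517). Its neighbour in class, GSTO2, ranged from 1.52 to 4.89 CPM and was not called in any comparison.

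GSTA4 (chr7:46635903-46656491), which clears the lipid peroxidation product 4-hydroxynonenal, went the other way. It stood at 67.1 and 79.6 CPM in experimental neobladder, 109 and 101 CPM in native bladder, 67.7 and 84.7 CPM in peritoneum and 11.2 and 14.6 CPM in control neobladder. The control libraries were the lowest of the 8 by a wide gap. Experimental exceeded control neobladder by 2.51 ± 0.366 (adjusted p = 0.000992), a call made in all 14 alternative settings, and its difference from native bladder was -0.52 ± 0.341 (adjusted p = 0.818).

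GSTM3 (chr4:110330027-110332957), a mu-class enzyme, was lowest in the experimental neobladder. It had 2 and 7 counts there (0.170 and 0.649 CPM), 8.97 and 11.5 CPM in native bladder, 11.9 and 41.8 CPM in control neobladder and 8.56 and 3.74 CPM in peritoneum. Of the 30 tested members it had the most negative log2 difference from native bladder, -4.63 ± 0.841, with an adjusted p of 0.0955 in edgeR and 2.84e-05 in DESeq2. That difference was -3.94 without MN-Exp replicate 1 and -5.82 without replicate 2. Against control neobladder the log2 fold change was -6.01 ± 0.866 (adjusted p = 0.000977). That value ranged from -7.18 without MN-Exp replicate 2 to -4.84 without MN-Ctrl replicate 2 and was called throughout.

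GSTK1 (chr18:6992623-6999068), the kappa-class enzyme of mitochondria and peroxisomes, stood at 122 and 234 CPM in control neobladder and between 32.0 and 69.1 CPM in the other 6 libraries. It fell by 1.84 on the log2 scale in experimental against control neobladder, with an SE of 0.406 (adjusted p = 0.00996). On unscaled totals the log2 fold change was -0.90 (adjusted p = 0.123), and the call was also lost with only these 2 groups in the fit (0.0531) and without MN-Exp replicate 1 (0.0981) or 2 (0.0874). GSTZ1 (chr7:100392217-100404025), which isomerises maleylacetoacetate in tyrosine breakdown, ranged from 22.3 to 59.6 CPM. Its difference between the neobladders was -1.06 ± 0.37 (adjusted p = 0.0661).

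Among the genes with a symbol, UGT8 (chr8:108233134-108315284) was the only UGT gene that met the rule. UGT genes without a symbol could not be seen. UGT8 transfers galactose to ceramide rather than glucuronic acid to drugs. It stood at 50.2 and 16.3 CPM in control neobladder, 5.42 and 1.39 CPM in experimental neobladder, 2.42 and 1.94 CPM in native bladder and 1.73 and 0.178 CPM in peritoneum. Both control libraries were above all others. The difference of experimental from control neobladder was -3.28 ± 0.866 (adjusted p = 0.0229). It was lost on unscaled totals (adjusted p = 0.0857), without MN-Exp replicate 2 (0.163) and without MN-Ctrl replicate 1 (0.0919, log2 fold change -2.22), and was -4.56 without MN-Exp replicate 1.

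The sulfotransferases were the family with the most members called higher in the experimental than in the control neobladder. SULT1C3, a member of the SULT1C group of phenol sulfotransferases, stood at 238 and 307 CPM in native bladder, 289 and 248 CPM in experimental neobladder, 26.8 and 19.7 CPM in control neobladder and 44.0 and 48.4 CPM in peritoneum. Native bladder and experimental neobladder overlapped, and each of their libraries was far above the other 4. The neobladders differed by 3.53 ± 0.406 (adjusted p = 0.000271). SULT1C2 stood at 14.6 and 18.2 CPM in native bladder, 44.3 and 16.4 CPM in experimental and 2.50 and 2.25 CPM in control neobladder, and had 0 counts in both peritoneum libraries. Its difference between the neobladders was 3.66 ± 0.582 (adjusted p = 0.00238), or 2.80 without MN-Exp replicate 1. How reads shared between SULT1C genes were counted is not given in the sources used here.

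SULT1E1 (chr8:66811536-66838181), which inactivates oestrogens, stood at 270 and 191 CPM in native bladder, 139 and 172 CPM in experimental neobladder, 40.8 and 42.0 CPM in control neobladder, and 0.407 and 0.446 CPM in peritoneum. Experimental exceeded control neobladder by 1.91 ± 0.366 (adjusted p = 0.00469, and 0.0502 without MN-Exp replicate 2). SULT2B1 (chr6:53928248-53963443), which sulfates cholesterol, stood at 22.5 and 22.3 CPM in experimental neobladder, 15.3 and 11.9 CPM in native bladder, 4.79 and 7.87 CPM in control neobladder, and 2.45 and 5.08 CPM in peritoneum. The experimental libraries were the highest of the 8. The neobladders differed by 1.84 ± 0.475 (adjusted p = 0.0209), and the call was lost without MN-Exp replicate 1 (0.0874) or 2 (0.102).

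SULT1B1, which sulfates thyroid hormones and small phenols, was the exception in the family. It stood at 143 and 164 CPM in control neobladder, 5.001 and 2.78 CPM in experimental neobladder, 3.64 and 6.35 CPM in native bladder and 0.407 and 0.0891 CPM in peritoneum. Both control libraries were far above the other 6. The log2 fold change of experimental against control neobladder was -5.30 ± 0.536 (adjusted p = 0.000137), called in all 14 alternative settings. SULT1A3 (chr3:18351205-18354653), named for the dopamine sulfotransferase, overlapped among the 3 mucosal groups, between 16.5 and 40.3 CPM, and stood at 134 and 185 CPM in peritoneum.

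In the control neobladder against native bladder, called higher beside CYP4F3, CYP26A1 and CYP51A1 were SULT1B1, UGT8, GSTO1 and GSTK1, with log2 fold changes of 4.94, 3.93, 3.44 and 2.28, and CYP1A2, whose 2 counts in native bladder leave a ratio of 27.5 with a 95% counting interval that ends at 237.2. Called lower beside CYP39A1 and CYP7B1 were CYP4B1 (-8.68), SULT1C3 (-3.55), GSTA4 (-3.03), SULT1C2 (-2.78) and SULT1E1 (-2.48). Without MNB replicate 1 the calls of GSTO1, GSTK1 and CYP1A2 were lost (adjusted p = 0.0599, 0.0616 and 0.117), and UGT8 was lost without either MNB library (0.075 and 0.0832). Without MN-Ctrl replicate 2, GSTO1 was at 2.15 and CYP4B1 at -9.48, and without MN-Ctrl replicate 1, GSTO1 was at 4.09, UGT8 at 2.88, CYP4F3 at 8.49 and CYP7B1 at -2.39. Unscaled library totals shifted the median log2 fold change of all tested genes from 0.11 to 0.89 between the neobladders, where they gave 8 members higher and 4 lower, against 16.9% and 5.02% of all tested genes. They shifted it from -0.11 to -0.97 in control neobladder against native bladder, where they gave 6 members higher and 8 lower, against 4.61% and 20.1%.

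These differences ran beside differences in cell markers. In experimental against control neobladder, 9 of 9 urothelial markers were called higher and 9 of 9 enterocyte markers lower. Over all tested genes the shares were 10.4% and 11.3%. Of the enterocyte markers, CDX2, FABP2, SI, SLC10A2 and APOA4 had 0 to 5 counts in each library outside control neobladder. They passed the low-count filter through that group, so some fall was set in advance. In experimental neobladder against native bladder none of the 18 urothelial and enterocyte markers was called, where 0.0967% of all tested genes were. UPK1A (12.1 and 45.5 against 90.6 and 103 CPM) and KRT7 (2196 and 2929 against 4825 and 3564 CPM) were still lower without overlap. PPARG and FOXA1 (275 and 364 against 206 and 232 CPM) were higher without overlap. UPK1B (468 and 2050 CPM) and UPK2 (334 and 1142 CPM) differed widely between the experimental libraries. Summed smooth muscle markers stood at 5237 to 5999 CPM in experimental, 4598 to 4622 CPM in native and 1001 to 1033 CPM in control mucosa, and 4 of 6 were called higher in the experimental than in the control neobladder. Summed macrophage markers stood at 2390 to 5279 CPM in control neobladder and 768 to 1128 CPM in the other libraries. Of these 6 markers, 3 were called lower in experimental than in control neobladder. C1QA, C1QB and TYROBP held most of the control sum. CD163 was instead lowest in control neobladder, at 12.2 and 6.93 CPM against 25.0 and 12.6 CPM in experimental. CSF1R overlapped between the neobladders. Of 3 neutrophil markers 2 were called higher in experimental than in control neobladder (summed 49.7 to 210 against 9.18 to 21.0 CPM). S100A12 held most of the experimental sum, at 186 and 42.9 CPM. CSF3R went the other way with overlap, at 11.2 and 4.27 CPM in experimental against 20.8 and 7.49 CPM in control. Of 4 endothelial markers 2 were higher (341 to 379 against 96.9 to 176 CPM). Of 5 tested adipocyte markers 2 were lower (7.70 to 11.2 against 118 to 272 CPM). The control adipocyte sum was mostly CIDEC (68.0 and 44.4 CPM) and LPL (203 and 68.6 CPM). There ADIPOQ stood at 0.762 and 0.937 CPM, PLIN1 at 0, and FABP4 at 0.436 and 3.93 against 5.51 and 3.62 CPM in experimental. The part of any of these in the enzyme differences was not tested.

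The comparisons with peritoneum ask how each mucosa stood against the tissue used as a graft. Experimental neobladder had 8 members higher, against 12.4% of all tested genes, and 5 lower, against 11.8%. Of the 6 SULT genes, 5 were higher. SULT1C2 was at least 213-fold higher against the floor for its 0 counts in peritoneum, and SULT1E1, CYP4B1, SULT1B1, SULT2B1, SULT1C3 and CYP51A1 had log2 fold changes of 8.47, 6.89, 3.96, 2.57, 2.54 and 2.16. The eighth was CYP1A2, with 2 counts in peritoneum. Without NP replicate 1, CYP4B1 was at 8.17 and SULT1B1 at 5.30, and without NP replicate 2 they were at 6.26 and 3.25 and SULT2B1 at 3.23. Lower were CYP26B1 (-4.44), GSTM3 (-3.89), CYP2D6 (-3.48), SULT1A3 (-2.25) and CYP2U1 (-1.59). Calls were lost for CYP2U1 in 6 of 14 settings, for GSTM3 and SULT1A3 without MN-Exp replicate 1 (adjusted p = 0.0702 and 0.0943) and for CYP26B1 without MN-Exp replicate 2 (0.0601), where GSTM3 was at -5.05 and CYP2D6 at -4.15. GSTM3 was at -3.15 without NP replicate 1.

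Control neobladder had 13 members above peritoneum, against 21.6% of all tested genes, and 5 below, against 20.6%. SULT1B1 (9.26), SULT1E1 (6.56), UGT8 (5.14), GSTO1 (4.93), CYP51A1 (3.29), CYP2R1 (2.59), GSTM3 (2.12), GSTK1 (1.47) and CYP2E1 (1.39) were higher on the log2 scale, as were CYP4F3 and CYP1A2 against 2 counts each, and CYP4F22 and SULT1C2 against 0 counts, each at least 16.7-fold higher. GSTA4 (-2.57), SULT1A3 (-2.51), CYP2U1 (-1.57) and CYP2D6 (-1.33) were lower, as was CYP26B1, with 1 count in control neobladder. The calls of CYP2D6, CYP2E1, GSTM3, GSTK1 and CYP2U1 were lost in 13, 9, 4, 4 and 4 of 14 settings, and unscaled totals gave 9 members higher and 9 lower, against 10.4% and 31.5% of all tested genes. That of CYP4F22 was lost without MN-Ctrl replicate 1 (adjusted p = 0.237), which held 42 of its 43 counts in the group, and without NP replicate 1 (0.0558) or 2 (0.0607). CYP2R1 lost its call on unscaled totals (0.0887) and without MN-Ctrl replicate 1 (0.0504), and CYP1A2 without NP replicate 2 (0.0548). With 1 library left out, the log2 fold change ranged from 4.11 to 7.47 for UGT8, 1.82 to 4.54 for CYP2R1, 8.57 to 10.58 for SULT1B1, 3.67 to 5.61 for GSTO1 and 0.97 to 2.84 for GSTM3, where UGT8, CYP2R1 and SULT1B1 moved most without an NP library and GSTO1 and GSTM3 without MN-Ctrl replicate 2. Without that library CYP2E1 was at 0.44 and SULT1A3 at -3.25.

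Peritoneum had 3 members above native bladder, against 9.93% of all tested genes, and 7 below, against 11.1%. CYP26B1 (4.81), SULT1A3 (2.84) and CYP2U1 (1.56) were higher. Of the 6 SULT genes 5 were lower, with SULT1C2 at least 115-fold lower and SULT1E1, SULT1B1, SULT1C3 and SULT2B1 at -9.04, -4.32, -2.56 and -1.84. The other two were CYP4B1 (-6.89) and CYP51A1 (-2.08). CYP2U1 lost its call in 7 of 14 settings and SULT2B1 in 3, while CYP26B1, SULT1A3 and CYP51A1 lost theirs without MNB replicate 1 (adjusted p = 0.0565, 0.0528 and 0.061). CYP4B1 and SULT1B1 were at -8.16 and -5.65 without NP replicate 1 and at -6.28 and -3.62 without NP replicate 2, where SULT2B1 was at -2.52. Summed adipocyte markers stood at 842 to 1312 CPM in peritoneum and at most 272 CPM elsewhere, and summed endothelial markers at 1430 to 1899 CPM and at most 425 CPM. Their part in these differences was not tested.

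Genes that serve these enzymes were taken from 5 lists. Of 11 tested transcription factors that sense foreign compounds and lipids, 2 were higher and 3 lower in experimental than in control neobladder. Over all tested genes the shares were 10.4% and 11.3%, which stand beside the counts of the other lists too. NR1I2, the pregnane X receptor that induces drug-metabolising P450s, stood at 298 and 169 CPM in control neobladder, 11.6 and 8.99 CPM in experimental neobladder and 1.05 and 0.672 CPM in native bladder. The 3 mucosal groups did not overlap. It was lower than in control neobladder by -4.50 ± 0.484 (adjusted p = 0.000188) and was the only gene of the 5 lists called against native bladder, at 3.57 ± 0.512 (adjusted p = 0.034). That call was lost on unscaled totals (0.237) and without either library of either group (0.15 to 0.379). NR1I3, the constitutive androstane receptor, was in the files below the filter.

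Lower beside NR1I2 were NR1H4, the bile acid receptor FXR (294 and 299 CPM in control neobladder, at most 0.371 CPM in experimental) and HNF4A (-4.58 ± 0.494), a factor of liver and gut epithelium. Higher were PPARG (291 and 393 CPM in experimental neobladder, 14.2 and 27.5 CPM in control, 271 and 284 CPM in native bladder), which is also on the urothelial marker list, and RXRA (1.45 ± 0.378). RXRA is the partner of PPARG, NR1I2 and NR1H4. The RXRA call was lost without MN-Exp replicate 2 (adjusted p = 0.174) and with only these 2 groups in the fit (0.0841).

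**Figure D4:**
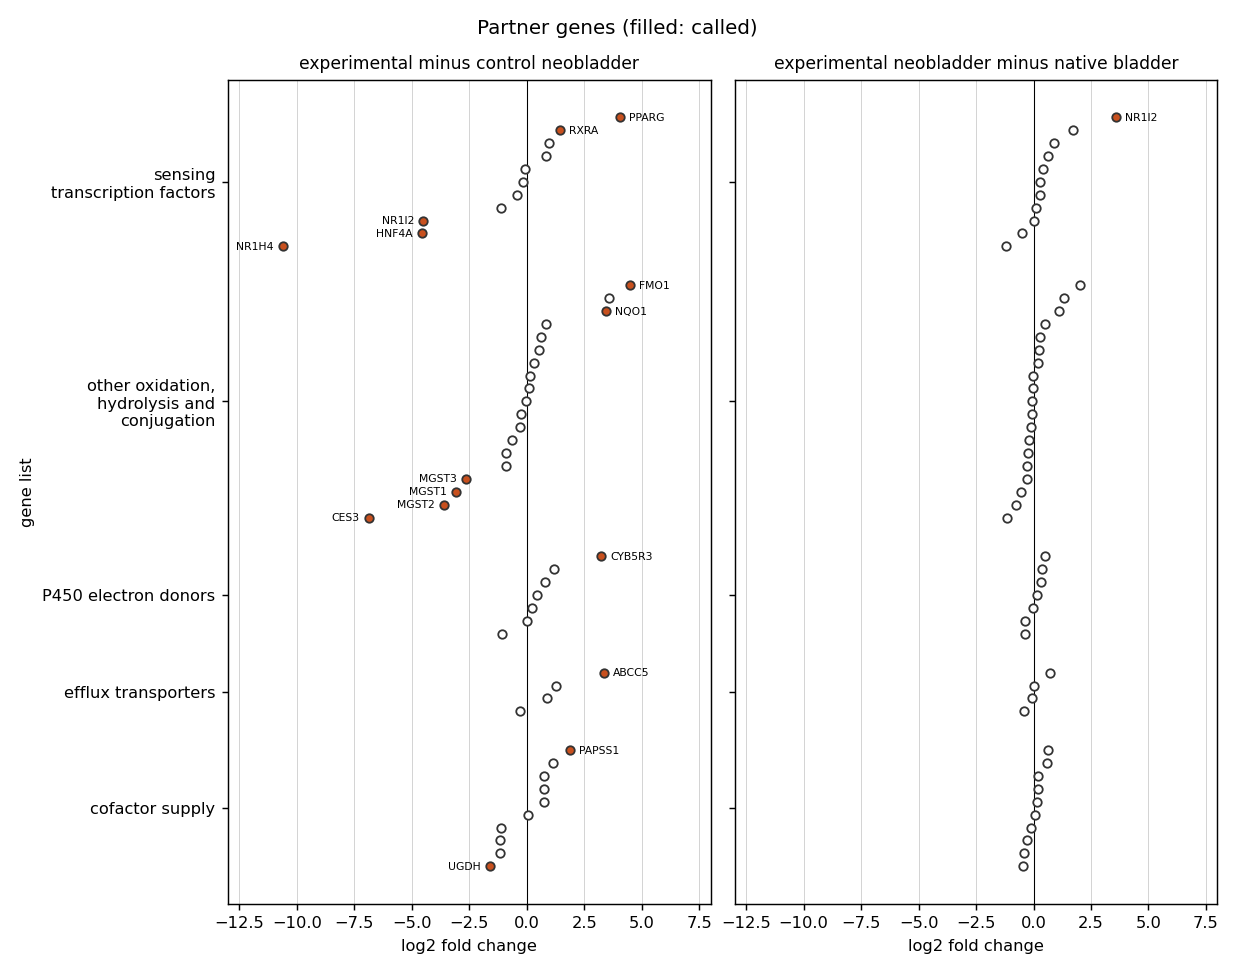
Log2 fold change of the 51 tested genes of the 5 partner lists in experimental neobladder, relative to control neobladder (left) and native bladder (right), 1 point per gene, filled and named where the adjusted p was under 0.05. In the left panel 7 named genes lie to the right of 0 and 8 to the left, and NR1I2 is the only one named in the right panel.

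Of 7 tested electron donors of the P450s, 1 was called between the neobladders, against 21.7% of all tested genes. This was CYB5R3, the reductase of cytochrome b5, at 58.7 and 69.0 CPM in experimental and 6.10 and 7.49 CPM in control mucosa (3.24 ± 0.383, adjusted p = 3e-04). POR itself stood at 141 and 208 CPM in experimental, 242 and 59.2 CPM in control and 154 and 126 CPM in native bladder, with overlap and a difference between the neobladders of 0.21 ± 0.559 (adjusted p = 0.819). Of 10 genes of cofactor supply, PAPSS1, which makes the sulfate donor PAPS, was higher in experimental than in control neobladder (146 and 125 against 47.2 and 25.9 CPM, adjusted p = 0.00747), a call lost with only these 2 groups in the fit (0.0529) and without MN-Exp replicate 1 (0.0517). UGDH, which makes UDP-glucuronic acid, was lower (163 and 146 against 671 and 277 CPM, adjusted p = 0.0306, lost in 8 of 14 settings). The enzymes of glutathione supply GCLC and GSR had differences of 1.14 ± 0.379 and -1.12 ± 0.415 that missed the threshold.

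Of 19 tested enzymes of other oxidation, hydrolysis and conjugation steps, 2 were higher and 4 lower in experimental than in control neobladder. Over all tested genes the shares were 10.4% and 11.3%. FMO1, a flavin monooxygenase, stood at 87.9 and 172 CPM in experimental, 6.32 and 5.25 CPM in control and 205 and 232 CPM in native mucosa. NQO1, a quinone reductase, stood at 1716 and 1303 CPM in experimental, 102 and 172 CPM in control, 1105 and 1012 CPM in native mucosa and 22.7 and 25.4 CPM in peritoneum. In both, the control libraries were below all 4 of the other mucosal libraries. The carboxylesterase CES3 (-6.88 ± 0.706) and the membrane-bound glutathione transferases MGST2 (-3.61 ± 0.652), MGST1 (-3.06 ± 0.637) and MGST3 (-2.64 ± 0.633) were lower. The calls of MGST1 and MGST3 were lost in 2 and 3 of 14 settings. Without MN-Ctrl replicate 2, MGST2 was at -2.13, MGST1 at -2.03, MGST3 at -1.40 and CES3 at -7.52. Without MN-Ctrl replicate 1, CES3 was at -5.65, MGST2 at -4.29 and MGST3 at -3.27. Of 4 tested efflux transporters, ABCC5 was higher, at 400 and 278 CPM in experimental against 24.4 and 42.7 CPM in control neobladder (3.34 ± 0.476, adjusted p = 0.000904).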

How the data were processed

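The authors deposited raw counts per Ensembl gene for 8 libraries. Per the labels' protocols, a TruSeq kit turned Smart-seq2 cDNA into libraries. Per the submitters' processing notes, Trim Galore, HISAT2 and HTSeq 0.11.1 were used with Sscrofa11.1. Their order, settings, annotation release, strand setting and treatment of reads that fit several genes are not given in the sources used here. Total counts per library are 7.94 to 11.88 M, and 3 counts equal 0.224 to 0.562 CPM.

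R 4.3.3 ran edgeR 4.0.16 (with limma 3.58.1) on those counts. The filterByExpr rule with the 4 groups kept 16549 genes, totals were scaled by TMM, and 1 robust quasi-likelihood fit of all 8 libraries (4 residual degrees of freedom, common dispersion 0.146) gave the 6 pairwise tests, with Benjamini-Hochberg adjustment over all kept genes. SEs were taken from the fold change and its F value. A group at 0 counts gives a bound against 3 counts over its 2 libraries, and groups with 1 to 3 counts an exact 95% interval, both for counting error only.

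Alternatives, 14 per comparison, were library totals alone (unscaled), DESeq2 size factors, the DESeq2 1.42.0 test, no filter, only the 2 groups compared, replicate number as a block and each library left out in turn. Members, lists and tests were chosen with earlier results of these data known. Members were named by rule: called with a group mean of 5 CPM or more in the comparisons among bladder and neobladders, the largest changes elsewhere, and the 3 highest of each family. From each partner list, up to 4 genes with the smallest p were named, with NR1I2, NR1I3 and POR, and the other called ones were added after their values were seen. Of the partner lists, 2 genes are not reported here. Positions, on Sscrofa11.1, come from RefSeq, which gave 22 of the 39 members. The IDs of 8 rule symbols are in no count file: CYP20A1, CYP2B6B, CYP2C42, CYP2C49, CYP2J34, CYP3A29, CYP4A21 and CYP4A24. Those genes could not be analysed here.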

Additional observations from a re-analysis of the deposited data

How the results depend on the processing

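Over the 6 comparisons, 69 results of a member in a comparison were called. None changed direction in any setting that gave a value, and 38 kept an adjusted p under 0.05 in all of them. The number of members called in experimental neobladder against native bladder was 0, and 3 with DESeq2, 3 with no low-count filter, 2 with only the 2 groups compared and 0 to 3 with 1 library left out. Over all genes tested in each setting, 0.0967% were called, and 1.3, 1.32, 3.11 and 0.0167 to 1.65%. Peritoneum against native bladder gave 10 members, 16 with only the 2 groups compared and 5 to 16 with 1 library left out, against 21.1, 37.7 and 7.46 to 32.2% of all genes. With 1 library left out, experimental against control neobladder gave 8 (without MN-Exp replicate 2) to 18, against 7.7 to 35.3% of all genes, and control neobladder against native bladder 7 (without MNB replicate 1) to 18, against 8.01 to 36%. The cause of these shifts was not tested.

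Libraries with the same replicate number did not deviate together (r = -0.08 to 0.091), so the numbers were not taken to pair them. With the replicate number as a block, the 6 comparisons gave 13, 0, 14, 13, 16 and 10 members. In the same order, 19, 0.0846, 19.7, 22.1, 38.7 and 19.1% of all tested genes were called. With 2 libraries a group, a lone library left in a group was assumed to vary like the other groups. Against a group with 0 to 3 counts over its 2 libraries, the size of a difference is known only as a bound or a counting interval.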
